A study of Citrus unshiu with 6 samples.

Results

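Of the 23099 genes measured in the peel of Satsuma mandarin, 38 are described here: those whose best protein match is named as an enzyme that makes or splits sucrose, phosphorylates hexoses, or makes or breaks trehalose. They were chosen by searching the match text for sucrose synthase, sucrose-phosphate synthase and phosphatase, invertase or fructofuranosidase, hexokinase, fructokinase, and the trehalose enzymes. The search gave 43 genes, of which 5 named as 6-phosphofructokinase were left out. No match was an inhibitor. Among the 38, both subunits of the pyrophosphate-dependent phosphofructokinase (PFP) were kept because their names contain the searched word, although PFP does not act on free fructose and is not a fructokinase; they are given apart. A further 12936 genes of the table (56.0%) carry a description without a protein name, so members of these families among them are not included.

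The peels came from “Yamashitabeni wase” Satsuma mandarin on trifoliate orange rootstock, grown under regular orchard care. RD peel was from fruit with roughing disorder, a rough and thick rind, which was brought about by removing most fruits of a tree at fruit set and keeping upward ones. CK peel was from trees that kept their fruits. Both were taken in the cell division stage (30 DAFB, days after full bloom), in the cell enlargement stage (80 DAFB), and at maturity (170 DAFB), giving the libraries RD30, RD80, RD170, CK30, CK80, and CK170. Each library was 1 pool made from 3 peel samples, so there is 1 library per condition, no SD, and no test within a stage: every difference is between 2 pools. The disorder, the trees, the fruit load, and the position of the fruit on the tree cannot be told apart. Values are FPKM, fragments scaled to the length of the transcript and to the size of the library, which allow levels of different genes to be set side by side. A gene was compared at a stage if 1 of the libraries or both had an FPKM of at least 1, and was counted as higher or lower if the ratio was at least 2-fold.

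Sucrose is the form in which leaves send carbon to fruit. In the fruit it is split either by sucrose synthase, which keeps the glucose bound to UDP for building cell walls and starch, or by invertases, which release glucose and fructose in the cell wall, the vacuole, or the cytosol. Sucrose is made again from hexose phosphates by sucrose-phosphate synthase and sucrose-phosphatase. Hexokinases and fructokinases phosphorylate the free hexoses, which brings them into metabolism. Trehalose 6-phosphate, made by trehalose-phosphate synthase (TPS) and removed by trehalose-phosphate phosphatase (TPP), is present in traces. In Arabidopsis it follows the sucrose level and restrains SnRK1, a kinase of carbon starvation. Citrus fruits store sucrose as they mature.

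Of the 38 members, 36 reached an FPKM of 1 in at least 1 library, 26 reached 10, and 34 were above 0 in all 6. The other two, the cell wall invertase Cs1g18230 and the trehalase Cs5g01775, stayed at or below 0.34 and were never compared. Abundance was very uneven. One sucrose synthase (Cs4g06850) and one acid invertase (Cs5g09220) together held 55.1%, 65.0%, and 58.7% of the members' summed FPKM in RD30, RD80, and RD170, against 66.9%, 51.0%, and 37.3% in CK30, CK80, and CK170. The members' sum was 1178, 1454, and 1284 in RD peel and 1757, 1280, and 1033 in CK peel at the 3 stages, or 0.193%, 0.239%, and 0.204% of all FPKM in RD peel and 0.297%, 0.210%, and 0.176% in CK peel. Summed over the members, RD peel was thus below CK peel at 30 DAFB and above it afterwards. In bulk peel, fewer cells of a type and less RNA per cell cannot be told apart.

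At 30 DAFB, 7 of the 36 members compared were higher in RD30 (19.4%, where 25.6% of all genes were) and 7 were lower (19.4%, where 6.34% of all genes were). The higher ones were 1 cell wall invertase, a pair of alkaline/neutral invertases, a weak fructokinase, 1 TPP, and a pair of TPS genes. The lower ones were the acid invertase Cs5g09220, a weak cell wall invertase, the alkaline/neutral invertases Cs9g01760 and Cs3g22270, and 3 TPP genes. At 80 DAFB, 0 of 33 members were higher in RD80 (5.20% of all genes were) and 3 were lower (9.09%, against 4.86% of all genes). At 170 DAFB, 3 of 31 were higher in RD170 (9.68%, against 8.14% of all genes) and 5 were lower (16.1%, against 10.1%). Of these 6 shares, that of lower members at 30 DAFB was the farthest from the share of all genes.

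Most genes had a higher FPKM in RD30 than in CK30, and the sugar genes less so. The median log2 ratio of RD to CK was 0.17 over the members and 0.48 over all genes compared in the youngest fruit. At 80 DAFB these medians were -0.14 over the members (0.07 without the PFP subunits) and 0.10 over all genes, and at maturity -0.26 over the members and -0.11 over all genes. Set against the median of genes with an FPKM of at least 1 in both libraries (0.43, 0.09, and -0.11), RD30 had 3 higher members (13.9% of all genes were higher) and 11 lower ones (10.8%), RD80 had 0 higher (4.28%) and 5 lower (5.63%), and RD170 had 5 higher (9.22%) and 5 lower (8.71%). At 30 DAFB the balance of higher and lower members therefore depended on the scale: it was even on the FPKM scale and leaned to lower members relative to the median. Fold changes below are on the FPKM scale, and where the all-gene median changes a call between RD and CK, the gene is named with the value on that scale.

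**Figure D1:**
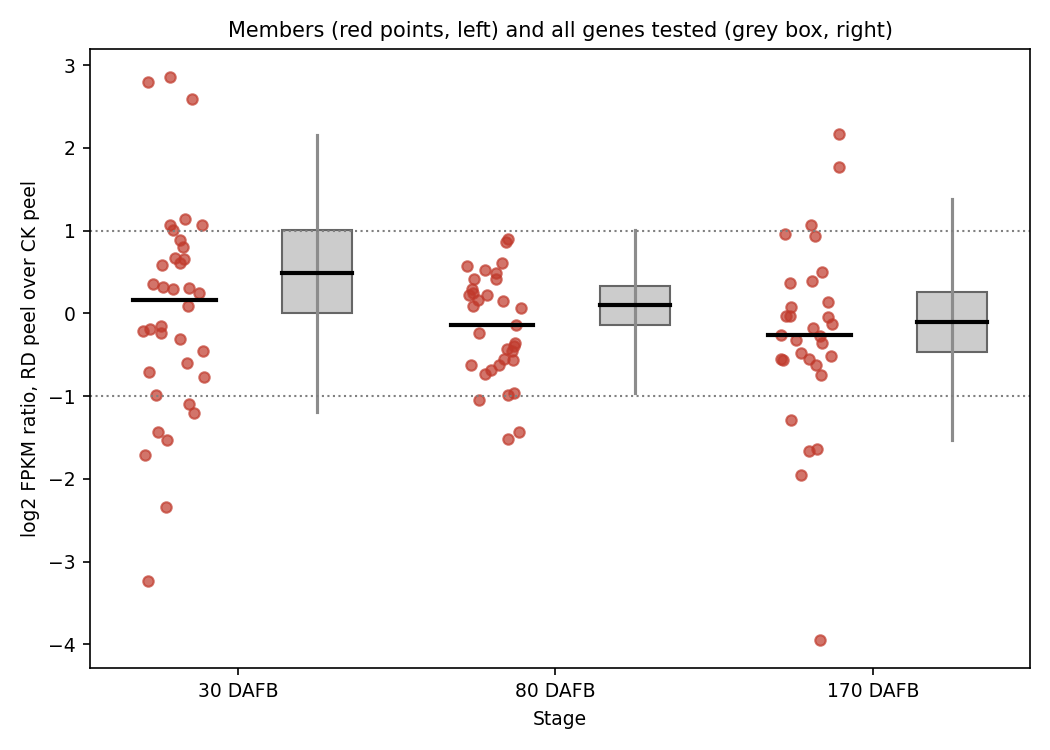
The vertical axis is the log2 FPKM ratio of RD peel over CK peel and the horizontal axis the stage; each red point is 1 member, the grey box spans the 25th to 75th percentile of all genes compared and the line through it the 5th to 95th, black bars are medians, and dotted lines mark 2-fold. The members' medians (0.17, -0.14, and -0.26) lie below those of all genes (0.48, 0.10, and -0.11) at each stage, and the members spread from -3.24 to 2.85 at 30 DAFB.

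In all, 16 of the 36 members differed at least 2-fold between RD and CK at 1 stage or more (44.4%), close to the 42.8% of all genes that did (8017 of 18748). Of these, 9 did so at 1 stage, 5 at 2 stages, and 2 at all 3 stages, namely the cell wall invertase Cs1g18220 and the TPP gene Cs3g18450. Of the 36, 5 members were higher in RD at one stage and lower at another (13.9%, against 4.53% of all genes). They were Cs1g18220, the acid invertase Cs5g09220, the TPS gene Cs2g04470, and the TPP genes Cs1g01330 and Cs3g18450. Several folds lay close to the limit. Just past it were Cs3g07590 (2.01-fold), Cs3g07570 (2.09), Cs2g04470 (2.10), Cs3g22270 (2.14), and Cs2g04200 (2.21) at 30 DAFB, Cs1g18220 (2.07) at 80 DAFB, and Cs3g18450 (2.09) at 170 DAFB. Just short of it were Cs5g05200 (1.98) at 30 DAFB, Cs9g01760 (1.98) and Cs2g04470 (1.94) at 80 DAFB, and Cs5g13310 (1.94) and orange1.1t03668 (1.91) at 170 DAFB.

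**Figure D2:**
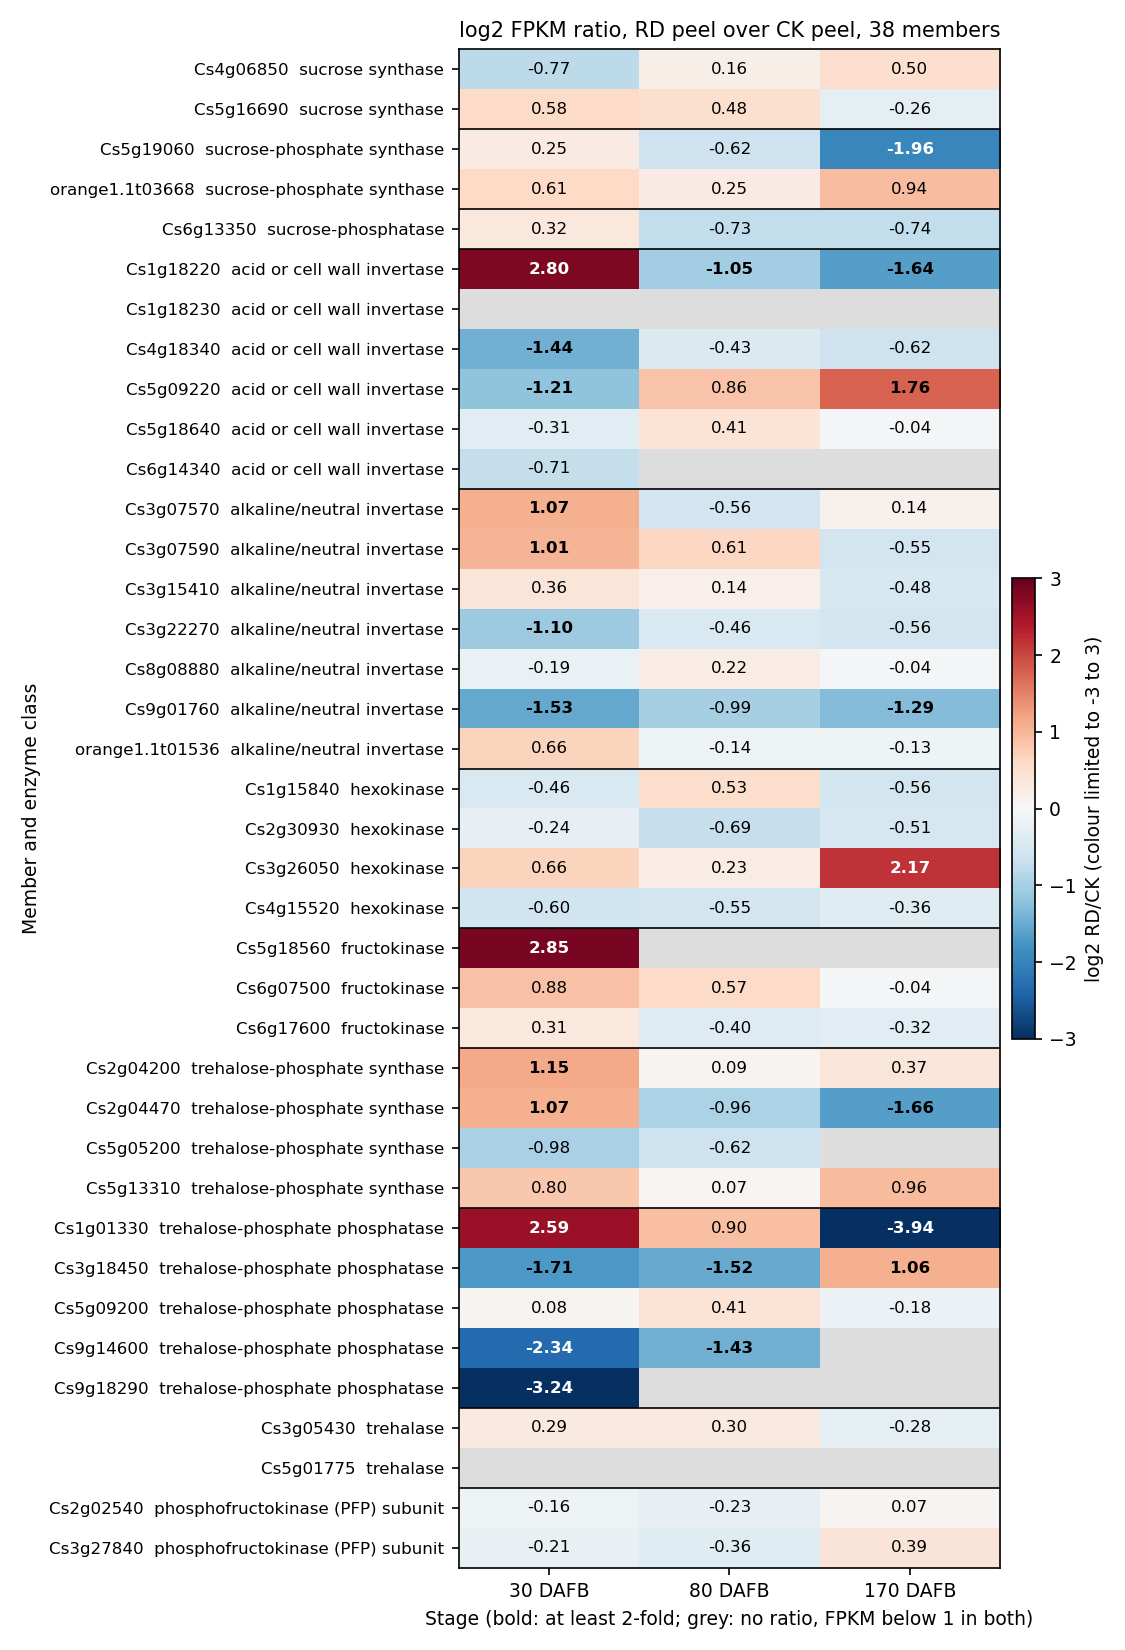
Rows are the 38 members by enzyme class and columns the 3 stages (DAFB, days after full bloom); colour and number give the log2 FPKM ratio of RD peel over CK peel, bold numbers are at least 2-fold, and grey cells had no library at an FPKM of 1. Cs9g01760, Cs9g14600, and Cs3g18450 are blue at 30 DAFB, while Cs1g18220 and Cs1g01330 turn from red at 30 DAFB (2.80 and 2.59) to blue at 170 DAFB (-1.64 and -3.94).

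The major sucrose synthase, Cs4g06850, had an FPKM of 540.2 in RD30, 387 in RD80, and 395 in RD170, against 924 in CK30, 345 in CK80, and 279.9 in CK170. It was the most abundant member in 5 of the 6 libraries, the exception being RD80. In RD30 it ranked in the top 0.420% of all genes, and in CK30 in the top 0.208%. RD peel was below CK peel at 30 DAFB (1.71-fold higher in CK30, log2 ratio -0.77) and above it at 170 DAFB (0.50), but no stage reached 2-fold. Relative to the all-gene median the 30 DAFB ratio was -1.21, which is past 2-fold. Both peels had their highest value at 30 DAFB, and the fall to 80 DAFB was beyond 2-fold in CK peel alone (log2 -1.42). The other sucrose synthase, Cs5g16690, named as isoform 6, had an FPKM between 4.05 and 6.79 in RD peel and between 3.73 and 4.86 in CK peel, with no 2-fold difference.

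Sucrose-phosphate synthase, the rate-controlling enzyme of sucrose synthesis, was read from a pair of genes that took different courses. Cs5g19060, named as isoform 4, had an FPKM of 1.13 in RD30, 2.79 in RD80, and 13.9 in RD170, against 0.95 in CK30, 4.29 in CK80, and 54.0 in CK170. It was higher at each later stage in both peels, and the step to maturity was log2 2.32 in RD peel and 3.65 in CK peel. RD170 thus stood 3.88-fold below CK170 (log2 -1.96). orange1.1t03668, named as isoform 3, had 16.1, 20.6, and 12.8 in RD peel and 10.5, 17.3, and 6.70 in CK peel at 30, 80, and 170 DAFB. It was the larger of the pair at 30 and 80 DAFB in both peels and the smaller at 170 DAFB. RD peel was above CK peel at each stage without reaching 2-fold. The largest difference, 1.91-fold at 170 DAFB, ran opposite to that of Cs5g19060, and relative to the all-gene median it was past 2-fold (1.04). Sucrose-phosphatase, which completes the synthesis, had 1 member. Cs6g13350 had 18.6, 24.4, and 22.8 in RD peel and 14.9, 40.5, and 38.2 in CK peel. After 30 DAFB it was 1.66-fold and 1.67-fold higher in CK peel, short of the limit, and only CK peel showed a 2-fold step, from 30 to 80 DAFB (log2 1.45).

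Among the invertases, the acid enzyme Cs5g09220 dominated. Its match is an acid beta-fructofuranosidase, the usual name of the soluble invertase of the vacuole. FPKM was 109 in RD30, 558 in RD80, and 359 in RD170, against 251 in CK30, 308 in CK80, and 106 in CK170. RD peel was lower at 30 DAFB (2.31-fold, log2 -1.21), 1.81-fold higher at 80 DAFB (0.86), and 3.40-fold higher at 170 DAFB (1.76). In both peels the highest value fell at 80 DAFB. The climb from 30 DAFB passed 2-fold in RD peel alone (log2 2.36), and the decline to 170 DAFB passed it in CK peel alone (-1.54). It made up 39.1%, 81.1%, and 73.9% of the invertase FPKM in RD peel, against 55.4%, 66.1%, and 37.6% in CK peel. At RD80 it exceeded the sucrose synthase Cs4g06850, by 1.44-fold, which no other library showed. The neighbouring gene by ID, the TPP gene Cs5g09200, stayed between 0.90 and 2.17 in RD peel and between 1.02 and 2.05 in CK peel.

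The insoluble invertases act in the cell wall, where sucrose unloaded from the phloem is split. Of the 5 members so named, Cs1g18220 was the strongest in RD30, RD80, CK80, and CK170. Its FPKM was 16.9 in RD30, 3.73 in RD80, and 3.59 in RD170, against 2.43 in CK30, 7.71 in CK80, and 11.2 in CK170. The courses ran opposite ways: RD peel was highest at 30 DAFB and CK peel at 170 DAFB. RD peel was 6.97-fold higher at 30 DAFB, and CK peel was 2.07-fold higher at 80 DAFB and 3.13-fold higher at 170 DAFB. The 80 DAFB call was lost with a pseudocount of 1 (log2 -0.88). Cs4g18340 had 0.82, 1.85, and 2.79 in RD peel and 2.22, 2.49, and 4.29 in CK peel, and was lower in RD30 by 2.71-fold, a call that the same pseudocount ended (-0.82). Cs5g18640, with the same best match as Cs4g18340, had between 2.68 and 3.59 in RD peel and between 2.41 and 3.70 in CK peel. Reads shared by such copies could be divided between them in the counting. Cs6g14340 exceeded 1 in CK30 alone (0.66 in RD30 and 1.08 in CK30), and relative to the all-gene median this ratio passed 2-fold (-1.14).

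The alkaline/neutral invertases split sucrose in the cytosol or in organelles, and 7 members carried this name. Cs9g01760, named after CINV2, a cytosolic invertase of Arabidopsis, had less in RD peel than in CK peel at each stage. It had an FPKM of 23.0 in RD30, 18.6 in RD80, and 14.3 in RD170, against 66.5 in CK30, 36.9 in CK80, and 35.0 in CK170. The difference was 2.89-fold at 30 DAFB, 1.98-fold at 80 DAFB, and 2.45-fold at 170 DAFB, and relative to the all-gene median the middle stage was also past 2-fold (-1.08). Cs3g22270, another gene of the CINV2 name, had 26.9, 17.7, and 14.9 in RD peel and 57.7, 24.3, and 21.9 in CK peel. It was lower in RD30 by 2.14-fold, and by less than 2-fold later. Both genes were highest at 30 DAFB in both peels.

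Another pair of alkaline/neutral invertases lay on the other side at 30 DAFB. Cs3g07570 had 15.1, 12.7, and 26.2 in RD peel and 7.23, 18.8, and 23.9 in CK peel, and Cs3g07590 had 14.1, 22.6, and 19.9 in RD peel and 7.0, 14.8, and 29.2 in CK peel. Both were about the limit in RD30 (2.09-fold and 2.01-fold higher) and within 2-fold later. These calls were lost relative to the all-gene median (log2 0.63 and 0.58). The pair have neighbouring IDs and the same best match, so their reads may be divided between them, and they are not independent observations. The remaining members, orange1.1t01536, Cs8g08880, and Cs3g15410, did not differ 2-fold at any stage. The most abundant of these, orange1.1t01536, had 41.2, 31.6, and 23.1 in RD peel and 26.1, 34.8, and 25.2 in CK peel. The 7 genes summed to 148, 121, and 116 in RD peel and 193, 145, and 156 in CK peel, within 1.34-fold at each stage, as the single genes differed in both directions.

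**Figure D3:**
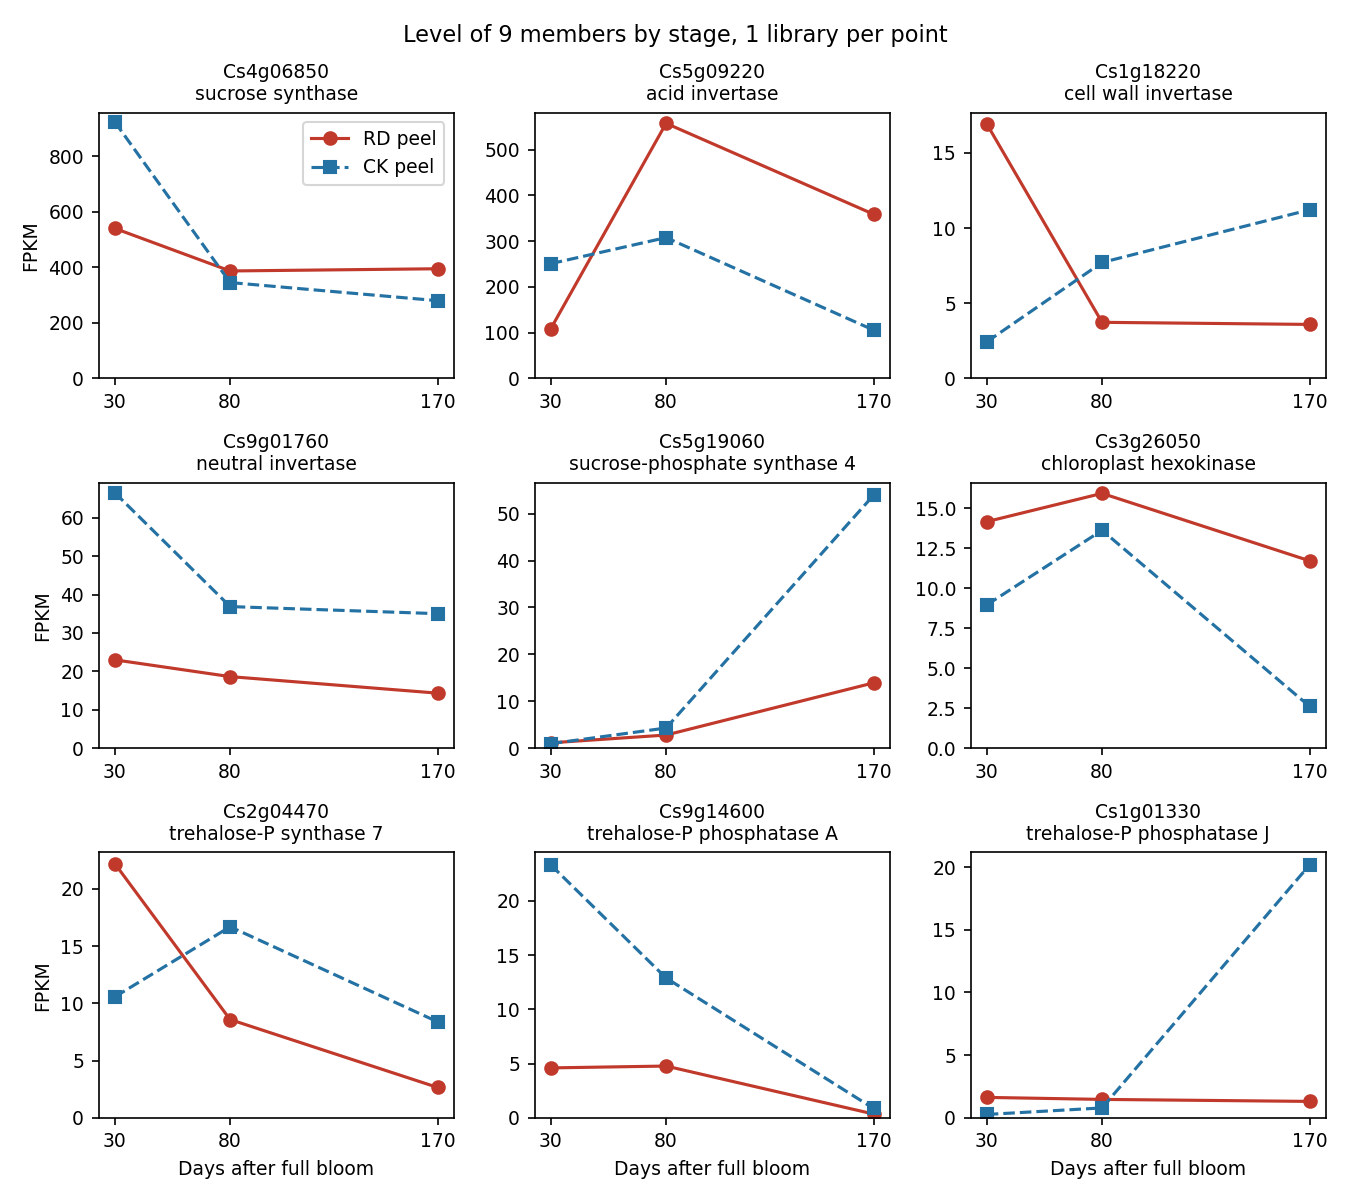
Each panel is 1 gene, with days after full bloom on the horizontal axis, FPKM from 0 on the vertical axis, red circles and solid lines for RD peel and blue squares and dashed lines for CK peel; each point is 1 library. The courses of Cs5g09220 and Cs1g18220 cross between stages, Cs9g01760 is lower in RD peel at each stage, and Cs5g19060 and Cs1g01330 are high in CK170 (54.0 and 20.2) while RD170 stays at 13.9 and 1.31.

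Over the 3 stages together, with the stage as block, limma on log2(FPKM + 1) called 0 of 36 members and 0 of 18748 genes (0%) at an adjusted p under 0.05. Unadjusted limma p was under 0.05 for 4 of the 36 members and for 6.93% of all genes. These were Cs9g01760, Cs9g14600, Cs3g22270, and Cs4g15520, each lower in RD peel. The direction of all genes with such a p was not counted, so that of the members has no share beside it. The strongest, Cs9g01760, was lower in 3 of 3 stages by a mean of -1.23 on this scale (limma adjusted p = 0.364). A difference that varies with the stage counts as error in this fit, which has 2 residual degrees of freedom per gene.

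Summed by class, the sucrose synthases had an FPKM of 546, 394, and 399 in RD peel and 927, 350.0, and 285 in CK peel at the 3 stages, and the acid and cell wall invertases 130.0, 567, and 369 in RD peel and 259.8, 321, and 125 in CK peel. These sums are largely those of Cs4g06850 and Cs5g09220. Both stood lower in RD peel at 30 DAFB, by 1.70-fold and 2.0-fold, and higher at 170 DAFB, by 1.40-fold and 2.95-fold. The sucrose-phosphate synthases summed to 17.2, 23.4, and 26.8 in RD peel and 11.5, 21.6, and 60.7 in CK peel, so that RD170 was 2.27-fold below CK170. The summed FPKM of all sucrose-splitting members over that of the members for sucrose synthesis was 23.0, 22.6, and 17.8 in RD peel and 52.4, 13.1, and 5.72 in CK peel. In RD peel this ratio was below that of CK peel at 30 DAFB and above it at 80 and 170 DAFB. Within RD peel it was nearly level from 30 to 80 DAFB and lower at 170 DAFB. Within CK peel it was far lower at each later stage. It is a ratio of transcript levels and does not measure enzyme activity or flux.

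**Figure D4:**
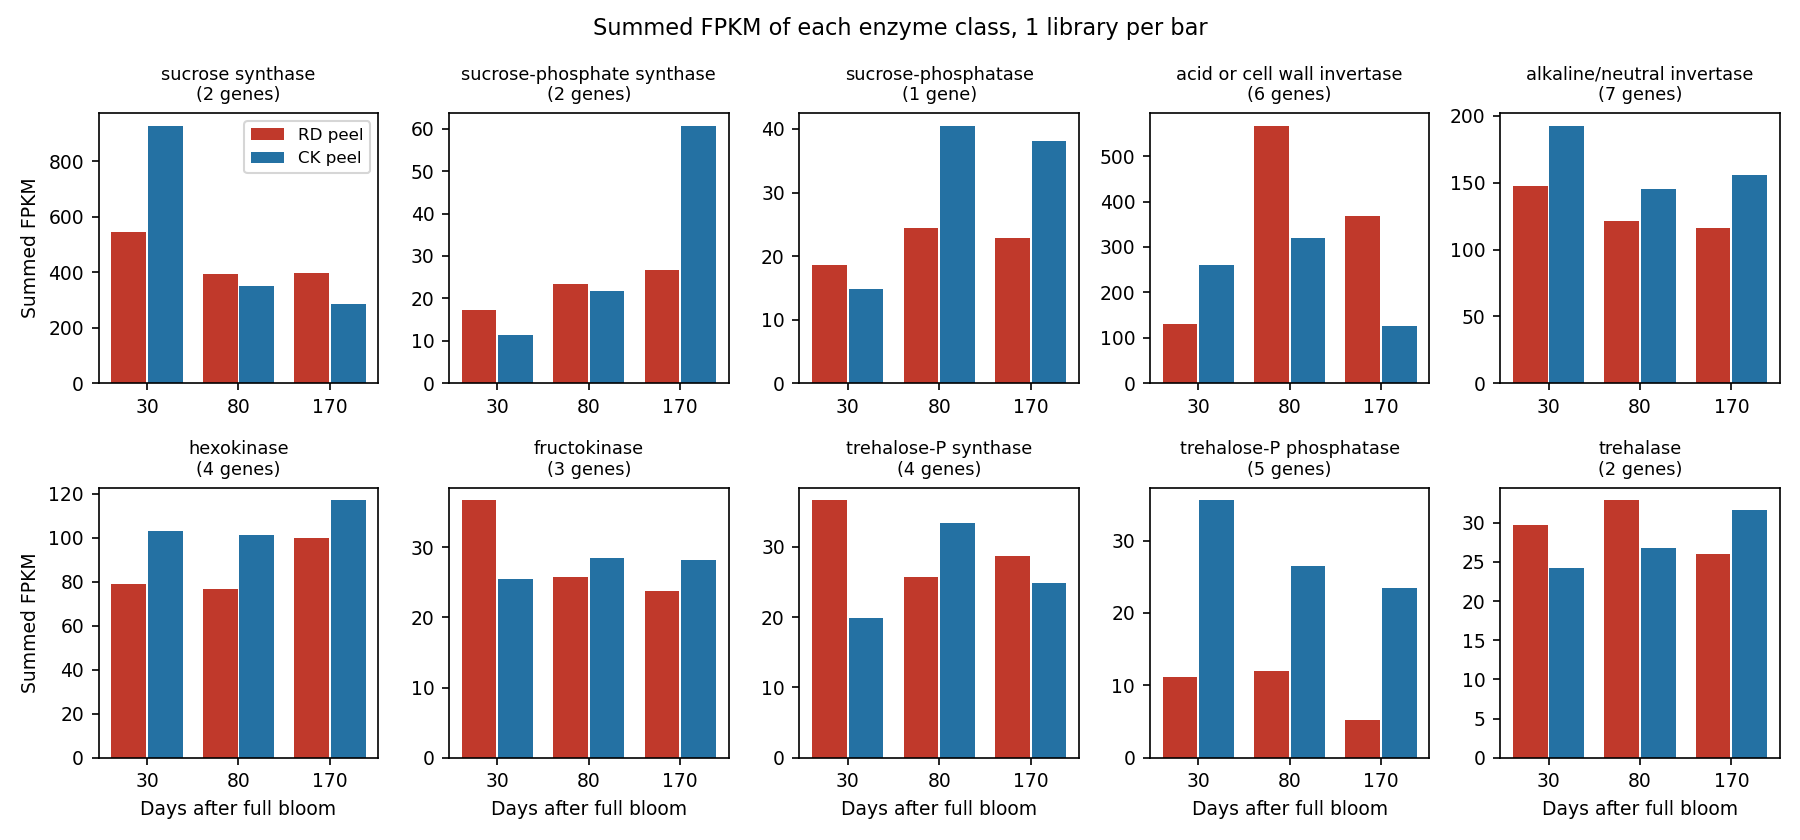
Each panel is an enzyme class with its number of genes; bars give the summed FPKM from 0, red for RD peel and blue for CK peel to its right, at the stages 30, 80, and 170 DAFB, with 1 library per bar. The TPP sum is lower in RD peel at each stage, the acid and cell wall invertase sum changes sides after 30 DAFB, and the sucrose-phosphate synthase sum of CK170 (60.7) stands far above that of RD170 (26.8).

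The hexokinases phosphorylate glucose and, less readily, fructose, and hexokinase 1 of Arabidopsis is also a glucose sensor. Cs4g15520, described only as hexokinase, held most of the class, with an FPKM of 51.1, 51.7, and 81.2 in RD peel and 77.5, 75.6, and 104 in CK peel. RD peel was lower at each stage, by 1.28-fold to 1.52-fold, within the limit on the FPKM scale. Relative to the all-gene median the 30 DAFB difference was past it (log2 -1.03). The gene matched to a chloroplast hexokinase, Cs3g26050, stood out at maturity. It had 14.2, 15.9, and 11.7 in RD peel and 8.96, 13.6, and 2.61 in CK peel. RD170 was 4.49-fold above CK170, as CK peel had dropped by 2.38 on the log2 scale since 80 DAFB while RD peel kept most of its level. Cs2g30930 (5.37 to 9.78 in RD peel and 7.65 to 11.5 in CK peel) and Cs1g15840 (1.62 to 3.82 in RD peel and 1.58 to 5.25 in CK peel), named as hexokinases 3 and 1, did not differ 2-fold.

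The fructokinases, which phosphorylate the fructose that sucrose synthase releases, showed little difference. Cs6g17600, named as fructokinase 2, had 22.6, 17.0, and 16.3 in RD peel and 18.2, 22.4, and 20.4 in CK peel. Cs6g07500, named as fructokinase 4, had 13.0, 8.68, and 7.40 in RD peel and 7.08, 5.86, and 7.60 in CK peel, with 1.84-fold at 30 DAFB as its largest difference. Cs5g18560, named as a putative fructokinase 5, passed the limit with 1.01 in RD30 and 0.14 in CK30, but was listed at 0 in RD80 and had at most 0.22 in all other libraries. The call was lost with a pseudocount of 1 (0.82). The PFP subunits, which together convert fructose 6-phosphate reversibly into the bisphosphate, were abundant and even: the beta subunit Cs2g02540 had 80.3 to 87.0 in RD peel and 81.4 to 102 in CK peel, and the alpha subunit Cs3g27840 had 45.3 to 81.3 in RD peel and 52.5 to 83.0 in CK peel. Neither differed 2-fold at any stage.

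Of the 4 TPS members, Cs2g04200 and Cs5g13310 are named after TPS1, the active synthase of Arabidopsis, and Cs2g04470 and Cs5g05200 after TPS7 and TPS9, of a second group of Arabidopsis proteins for which synthase activity is not established. Cs2g04470 had 22.2 in RD30, 8.58 in RD80, and 2.65 in RD170, against 10.6 in CK30, 16.7 in CK80, and 8.38 in CK170. RD peel declined by more than 2-fold at both steps, whereas CK peel was highest at 80 DAFB. RD30 was 2.10-fold above CK30, RD80 was 1.94-fold below CK80, and RD170 was 3.16-fold below CK170. The 30 DAFB call was lost relative to the all-gene median (log2 0.64), and the 80 DAFB ratio then passed the limit (-1.05).

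The TPS1-like genes were highest at maturity in RD peel. Cs2g04200 had 5.75, 5.19, and 10.9 in RD peel and 2.60, 4.89, and 8.47 in CK peel, and was 2.21-fold higher in RD30, a call that was lost relative to the median (0.71). Cs5g13310 had 7.35, 11.3, and 15.0 in RD peel and 4.21, 10.8, and 7.75 in CK peel. Its ratios at 30 and 170 DAFB were 1.75 and 1.94, and relative to the median the ratio at maturity passed 2-fold (1.06). At 80 DAFB the peels were nearly level for both genes (1.06 and 1.05). Cs5g05200 had 1.30 in RD30 and 2.57 in CK30, which relative to the median was past 2-fold (-1.42), and it ended at 0.12 in RD170 and 0.27 in CK170. The TPS sum was 36.6, 25.8, and 28.7 in RD peel and 19.9, 33.4, and 24.9 in CK peel.

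The TPP genes, which remove trehalose 6-phosphate, were the class with the most differences: 4 of 5 members passed 2-fold at 30 DAFB, 3 of them lower in RD30. Cs9g14600, named as TPP A, had 4.60 in RD30, 4.77 in RD80, and 0.35 in RD170, against 23.3 in CK30, 12.9 in CK80, and 0.86 in CK170. It was 5.07-fold lower in RD30 and 2.70-fold lower in RD80, and at maturity both peels were below 1. Cs3g18450, named as TPP D, had 2.62, 3.90, and 2.55 in RD peel and 8.59, 11.2, and 1.22 in CK peel. It was lower in RD peel by 3.28-fold at 30 DAFB and 2.87-fold at 80 DAFB, and 2.09-fold higher at 170 DAFB. That last call was lost with TPM scaling (log2 0.97) and with a pseudocount of 1 (0.68). CK peel lost most of its level after 80 DAFB (log2 -3.20), while RD peel stayed within 2-fold. The other TPP D gene, Cs9g18290, had 0.14 in RD30 and 1.32 in CK30 and at most 0.21 elsewhere.

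Cs1g01330, named as TPP J, showed the largest difference of any member at maturity. It had 1.63, 1.47, and 1.31 in RD peel and 0.27, 0.79, and 20.2 in CK peel. RD peel was flat over the stages, while CK170 was log2 4.67 above CK80. RD30 was 6.04-fold above CK30, both at low levels, and RD170 was 15.4-fold below CK170. The difference at maturity therefore rests on the single pool CK170. The remaining gene, Cs5g09200 (TPP F), did not differ 2-fold. The TPP sum was 11.2, 11.98, and 5.18 in RD peel and 35.5, 26.5, and 23.4 in CK peel, and was 3.18-fold, 2.21-fold, and 4.52-fold lower in RD peel. The genes behind it changed with the stage: Cs9g14600 and Cs3g18450 made most of the CK sum at 30 and 80 DAFB, and Cs1g01330 at 170 DAFB. Trehalase, which splits trehalose into glucose, was steady. Cs3g05430 had 29.6, 32.8, and 26.0 in RD peel and 24.3, 26.7, and 31.5 in CK peel, within 1.23-fold at each stage.

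Within RD peel, 3 of 34 members were higher at 80 than at 30 DAFB (8.82%, against 7.15% of all genes) and 4 were lower (11.8%, against 9.44%). The higher ones were Cs5g09220 (log2 2.36), Cs5g19060 (1.30), and Cs4g18340 (1.17), and the lower ones Cs1g18220 (-2.18), Cs2g04470 (-1.37), and the weak genes Cs5g05200 and Cs5g18560. From 80 to 170 DAFB, 3 of 32 were higher in RD peel (9.38%, against 8.77% of all genes), namely Cs5g19060 (2.32), Cs2g04200 (1.07), and Cs3g07570 (1.04). As many were lower (9.38%, against 17.7%), namely Cs9g14600 (-3.77), Cs2g04470 (-1.70), and Cs5g09200 (-1.03). Only Cs5g19060 passed the limit upward at both steps, as it also did in CK peel, and only Cs2g04470 downward.

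Within CK peel, 6 of 34 members were higher at 80 than at 30 DAFB (17.6%, against 23.4% of all genes) and 6 were lower (17.6%, against 9.06%). The higher ones included Cs5g19060 (2.18), Cs1g18220 (1.67), sucrose-phosphatase (1.45), Cs3g07570 (1.38), and the TPS1-like Cs5g13310 (1.36). The lower ones included Cs4g06850 (-1.42), the hexokinase Cs1g15840 (-1.73), and Cs3g22270 (-1.25). Relative to the all-gene median, which was 0.31 higher in CK80, 5 were higher and 9 lower: Cs9g01760 (-1.16), Cs8g08880 (-1.30), and Cs9g14600 (-1.17) joined the lower ones, and Cs3g07590 (0.76) left the higher ones. The share of all genes called on that scale was not computed for this step, so these counts have nothing beside them. From 80 to 170 DAFB, 2 of 33 were higher in CK peel (6.06%, against 14.8% of all genes) and 6 were lower (18.2%, against 17.5%). The higher ones, Cs1g01330 (4.67) and Cs5g19060 (3.65), moved far, and the lower ones included Cs9g14600 (-3.90), Cs3g18450 (-3.20), Cs3g26050 (-2.38), and Cs5g09220 (-1.54). The step from 30 to 80 DAFB in Cs1g18220 was beyond 2-fold in opposite directions in RD peel and CK peel. Of the 36 members that reached 1, the highest stage was 30, 80, or 170 DAFB for 18, 10, and 8 in RD peel and for 11, 12, and 13 in CK peel, and it was the same in both peels for 23. The highest stage was not counted for all genes, so these counts cannot be read as particular to the members.

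Genes next to these pathways were read from lists by function. For scale, 25.6% of all genes compared were higher and 6.34% lower in RD30, 5.20% and 4.86% in RD80, and 8.14% and 10.1% in RD170. The 8 genes that interconvert UDP-glucose and hexose phosphates showed 0 differences of 2-fold at any stage (medians 0.06, -0.09, and -0.21). The largest of them, the UDP-glucose pyrophosphorylase Cs6g16010, had 200.2, 161, and 341 in RD peel and 132, 189, and 270.9 in CK peel. Of 5 phosphofructokinases using ATP, a step of glycolysis, 2 were higher in RD30 (Cs4g13070, 1.15, and Cs1g15970, 1.21) and none differed later. Of 7 SnRK1 subunits, 6 were compared and 1 was higher in RD30 (Cs2g19370, 1.67). Of 11 genes for raffinose sugars, which are built on sucrose, 9, 9, and 6 were compared at the 3 stages. Among these, 3 were higher and 2 lower in RD30, 0 and 2 in RD80, and 1 and 1 in RD170. Cs4g05490, named as a galactinol-sucrose galactosyltransferase, was an abundant transcript of young peel, with 354, 236, and 147 in RD peel and 1494, 469, and 91.9 in CK peel, and was lower in RD30 (-2.08). No gene was described as an invertase inhibitor.

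The libraries held 16026 to 17155 genes at an FPKM of at least 1 and sums of 587201 to 628627 FPKM. The study states read totals that are close to each other in all 6 libraries. The reads behind a gene's FPKM were not used here. Some other groups of genes also differed between RD and CK. Of all genes compared, 25.6% were higher and 6.34% lower in RD30, 5.20% and 4.86% in RD80, and 8.14% and 10.1% in RD170. Of 27 heat shock proteins, 22 were compared at 30 DAFB, where 13 were higher and 0 lower in RD30, with sums of 8519 in RD30 and 1354 in CK30. Of 23 compared in RD80, 0 were higher and 5 lower, and of 22 compared in RD170, 3 were higher and 1 lower. Their sums were 1305 in RD80 and 2655 in CK80, and 4788 in RD170 and 2639 in CK170. Of 7 chlorophyll a-b binding proteins, markers of green tissue, 7, 7, and 6 were compared at the 3 stages. Among these, 6 were higher in RD30, 1 in RD80, and 4 in RD170, with 0 lower at any stage. Their sums were 9912, 11943, and 1201 in RD peel and 4833, 12876, and 125 in CK peel. Of 11 terpene synthases, which mark the oil glands of the peel, 6, 8, and 7 were compared at the 3 stages. Among these, 2 were higher and 1 lower in RD30, 0 and 4 in RD80, and 1 and 1 in RD170. The terpene synthase sums were 717, 818, and 542 in RD peel and 322, 978, and 591 in CK peel. Of 3 seed protein genes, the oleosin orange1.1t03751 alone reached 1 (10.8 to 15.1 in RD peel and 7.73 to 17.0 in CK peel). The part of tissue state and stress in the sugar gene differences was not tested.

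By their IDs, 36 of the 38 genes lie on numbered chromosomes of the sweet orange genome, 9 on chromosome 5 and 8 on chromosome 3, and 2 are unplaced. Beside the alkaline/neutral pair on chromosome 3, the cell wall invertases Cs1g18220 and Cs1g18230 have neighbouring IDs. Only the first of these was expressed at an FPKM of 1 or more.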

How the data were processed

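RNA of 6 peel pools (1 library per condition, pooled from 3 peel samples) was sequenced. The authors removed reads with adapters or of low quality, and aligned the rest to the sweet orange genome (a related species; build name not given in the sources used here). The submitters' processing notes list Bowtie, BWA, and RSEM, and the authors deposited FPKM per gene to 2 decimals, with a best protein match. Reads per gene were not used here, so count tests and intervals were not run.

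Ratios of RD to CK and between stages were computed without a pseudocount (Python 3.11.15, pandas 2.3.3, numpy 2.4.6). A gene was called at 2-fold or more with an FPKM of at least 1 in the higher library. The rule was tested on simulated data with counting noise alone. That simulation held no variation between trees or pools, so it does not measure how far such variation affects the calls. RD and CK were also compared over all stages with limma 3.58.1 (R 4.3.3; log2(FPKM + 1), stage as block, Benjamini-Hochberg adjustment). Members with an FPKM of 10 or called at a stage were named with all values. Alternatives were scaling to the median, the upper quartile, or TPM, a pseudocount of 1, no minimum or a minimum of 5, and names of the enzyme class only. Members and lists were chosen with earlier results of these data known. No sequence is shown.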

Additional observations from a re-analysis of the deposited data

Results flagged for a closer look

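The courses of 5 members drew attention because the difference between RD and CK passed 2-fold in opposite directions at different stages. The acid invertase Cs5g09220 had log2 ratios of -1.21 at 30 DAFB and 1.76 at 170 DAFB. The cell wall invertase Cs1g18220 had 2.80 at 30 DAFB, -1.05 at 80 DAFB, and -1.64 at 170 DAFB, and its step from 30 to 80 DAFB was -2.18 in RD peel and 1.67 in CK peel. The TPS gene Cs2g04470 had 1.07 at 30 DAFB and -1.66 at 170 DAFB. The TPP gene Cs1g01330 had 2.59 at 30 DAFB and -3.94 at 170 DAFB, and Cs3g18450, another TPP gene, had -1.71, -1.52, and 1.06 at 30, 80, and 170 DAFB. Such a pattern was seen in 5 of 36 members (13.9%) and in 850 of 18748 genes (4.53%). Some of these calls depended on the setting. Cs2g04470 at 30 DAFB was 0.64 relative to the all-gene median. Cs3g18450 at 170 DAFB, with an FPKM of 2.55 in RD170 and 1.22 in CK170, was 0.97 with TPM scaling and 0.68 with a pseudocount of 1. For Cs1g01330 the 30 DAFB call rested on low FPKM, 1.63 in RD30 and 0.27 in CK30. With 1 library per condition the differences between stages were not tested.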

How the results depend on the processing

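With 1 pool per condition, a difference between RD and CK includes the differences between trees and pools, and the reads behind each FPKM value were not used. Within a stage, no paired analysis was possible because each condition had 1 library and so no replicate numbers to pair. Stages could be paired, and the fit with stage as block, chosen after seeing the data, called 0 members. Of 98 counts of members under the 7 alternatives, 82 stayed within 1.5 times the main count. Relative to the median of all genes, 3 members were higher and 11 lower in RD30, 5 lower in RD80, and 5 higher in RD170. Upper-quartile scaling gave 3 higher and 10 lower in RD30, 5 lower in RD80, and 5 higher in RD170. With a pseudocount of 1, 3 were higher in RD30, 1 was higher in RD80 than in RD30, 1 was higher in RD170 than in RD80, and 3 were lower in CK80 than in CK30. With a minimum FPKM of 5, 1 was higher and 2 were lower in RD80 than in RD30, 1 was lower in RD170 than in RD80, and 3 were lower in CK80 than in CK30. Without a minimum, 9 were lower in RD170. Under upper-quartile scaling, the pseudocount, and the changed minimum, the share of all genes called was not computed. Relative to the median it was computed for RD against CK at each stage, but not for the steps between stages. The median log2 ratio of the members at 30 DAFB changed sign on both rescalings (-0.27 relative to the median and -0.19 with the upper quartile), as did that of CK80 over CK30 (0.18 in the main setting, -0.13 and -0.12). The summed ratios of sucrose-phosphatase (-0.11) and trehalase (-0.14) at 30 DAFB, both uncalled, also changed sign relative to the median. The median at 80 DAFB, -0.14, was 0.07 without the PFP genes and 0 without a minimum. Of 482 values of named members, 454 kept their side of 2-fold, 17 lost it, 11 gained it, and 0 passed it in the opposite direction. Changes of sign within 2-fold were not counted here. Among them, relative to the median at 30 DAFB, were Cs5g19060 (0.25 to -0.18) and Cs6g17600 (0.31 to -0.12). At 80 DAFB, 0 members were higher in RD80 under all 7 alternatives.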
